A study of Homo sapiens with 8 samples.

Results

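The 35 genes described here are nuclear genes of 2 machines of mitochondrial oxidative phosphorylation, complex III and the ATP synthase (complex V), together with cytochrome c. They were taken as a list of named subunits, assembly factors and 1 inhibitor, matched by symbol to the gene IDs of the count table. All 35 of 35 matched, out of 38010 gene IDs in all, and the list sets no threshold on measured values. The list holds 9 complex III subunits, 6 complex III assembly factors, cytochrome c, 15 ATP synthase subunits, the ATP synthase inhibitor ATP5IF1 and 3 ATP synthase assembly factors.

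RNA was sequenced from cultured Ea.hy926 cells, a human line made by fusing umbilical vein endothelial cells with lung carcinoma cells. The parental line (Eahy) was compared with Rho0, a derivative of the same line that is deficient in oxidative phosphorylation, with 4 biological replicates each. Both lines had been grown to confluence, and no further treatment is named for either. Each group is 1 line, so the loss of respiration and any other difference between the 2 lines cannot be told apart. The sources used here do not say how the Rho0 line was derived or whether it is 1 clone. The labels name the replicates as biological without saying whether they came from separate passages, and p-values measure the spread between these samples.

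Complex III passes electrons from ubiquinol to cytochrome c and pumps protons across the inner mitochondrial membrane, and the ATP synthase lets those protons back through a rotating ring to make ATP. Each complex is built from many subunits encoded in the nucleus and a few encoded in mitochondrial DNA: cytochrome b for complex III, and subunits a and A6L for the ATP synthase. Cells without mitochondrial DNA, called Rho0, cannot complete either complex. In such cells the F1 head of the ATP synthase is still able to hydrolyse ATP, and ATP5IF1 is the protein that restrains this reverse reaction.

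The mitochondrially encoded partners separated the lines. MT-CYB, which encodes cytochrome b, was at 12558, 13204, 15963 and 10484 CPM (counts relative to library sizes scaled by edgeR's TMM method) in parental replicates 1 to 4, and at 2.53, 85.1, 3.34 and 1.69 CPM in Rho0 replicates 1 to 4. MT-ATP6, which encodes subunit a, was at 16549, 15777, 21076 and 13430.0 CPM in the parental line and at 3.48, 102, 5.15 and 2.25 CPM in Rho0. MT-ATP8, which encodes subunit A6L, was at 5921, 5020.1, 7985 and 4258 CPM and at 1.40, 32.7, 1.72 and 0.857 CPM. No Rho0 library came near the parental range, and Rho0 replicate 2 stood apart from the other 3 Rho0 libraries in each gene. The log2 fold changes (Rho0 over parental) were -9.18 (SE 1.45, edgeR quasi-likelihood F-test, Benjamini-Hochberg adjusted p = 0.00034), -9.25 (SE 1.41, adjusted p = 0.00027) and -9.44 (SE 1.29, adjusted p = 0.00012). Without Rho0 replicate 2 they were -12.40, -12.23 and -12.17.

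Library totals ran from 11721708 to 37203507 estimated counts, and a single count corresponded to between 0.0225 and 0.0753 CPM. Genes of mitochondrial DNA took 16.05% to 21.4% of the counts of the parental libraries, and 0.00431%, 0.149%, 0.00756% and 0.00296% of Rho0 libraries 1 to 4. Of 12 endothelial markers, 11 were at 1 CPM or more in both lines, with summed levels of 6967 to 7885 CPM in parental and 7057 to 8140 CPM in Rho0 libraries, and CLDN5 was below 1 CPM. Of the 11 tested, 4 were higher in Rho0 (KDR 9.43-fold and PECAM1 1.95-fold among them) and 3 lower (CDH5, EGFL7 and ESAM). These are 36.4% and 27.3%, beside 29% and 25.4% of all genes tested. Of 10 epithelial markers 5 were at 1 CPM or more, with sums of 2613 to 2885 CPM in the parental line and 1298 to 2082 CPM in Rho0, and SFTPC and NKX2-1 were at 0 in every library. Of the 7 epithelial markers tested, 4 were lower in Rho0 (KRT8, KRT18, CLDN4 and SFTPB) and 1 higher (EPCAM). Of 8 mesenchymal markers 1 (ACTA2) was at 1 CPM or more, and they summed to 7.80 to 10.0 CPM in parental and 22.7 to 30.1 CPM in Rho0 libraries, and the 5 blood markers to at most 1.26 CPM, with CD3E and HBB at 0. Of the 4 mesenchymal markers tested, 2 were higher (ACTA2 3.54-fold, and DCN) and 1 lower (PDGFRB). PTPRC, the 1 blood marker tested, was higher. The part of these marker differences in the results below was not tested.

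All 35 genes passed the filter on low counts. The lowest count of any of them in any library was 83, and parental means ran from 6.03 to 447 CPM. The promoters of 27 of them were in the RefSeq table of GRCh38.p14 used here, which gives 250 bases before to 50 bases after each gene's start. Nuclear respiratory factor 1 (NRF1), GABPA and YY1 are transcription factors long associated with genes of oxidative phosphorylation, and their core motifs were searched as exact letters on both strands. The windows below are those of the complex III genes in the table that were lower in Rho0 by at least 0.5 on the log2 scale, of UQCRFS1 (-0.29), and of ATP5F1C, which was higher. They are not a full set: ATP5MC2, also lower by at least 0.5, had 0 matches in its promoter and is not printed. They run from 120 bases before to 10 bases after the start, 5′ to 3′ on the strand of the gene. Capitals mark matches, on either strand, to the NRF1 core motif with 1 of its central bases left free, and, in UQCR11 and UQCRQ, to the GABPA letters CCGGAAG.
UQCRC1 (chr3:48609637-48609766, minus strand): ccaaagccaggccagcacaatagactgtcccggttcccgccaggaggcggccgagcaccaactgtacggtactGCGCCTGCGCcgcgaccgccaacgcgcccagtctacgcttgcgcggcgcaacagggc
UQCRFS1 (chr19:29213142-29213271, minus strand): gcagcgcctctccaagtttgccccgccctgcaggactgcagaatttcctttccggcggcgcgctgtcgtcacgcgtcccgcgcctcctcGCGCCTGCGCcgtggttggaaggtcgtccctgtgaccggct
UQCR10 (chr22:29767249-29767378, plus strand): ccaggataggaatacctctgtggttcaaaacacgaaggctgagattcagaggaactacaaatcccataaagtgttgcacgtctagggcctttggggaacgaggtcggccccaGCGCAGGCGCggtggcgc
UQCR11 (chr19:1605453-1605582, minus strand): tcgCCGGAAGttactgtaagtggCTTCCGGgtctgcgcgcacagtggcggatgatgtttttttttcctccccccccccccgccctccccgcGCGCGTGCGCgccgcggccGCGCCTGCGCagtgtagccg
UQCRQ (chr5:132866522-132866651, plus strand): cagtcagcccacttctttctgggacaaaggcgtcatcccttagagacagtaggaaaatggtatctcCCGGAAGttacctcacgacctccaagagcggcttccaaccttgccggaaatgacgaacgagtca
UQCC2 (chr6:33711691-33711820, minus strand): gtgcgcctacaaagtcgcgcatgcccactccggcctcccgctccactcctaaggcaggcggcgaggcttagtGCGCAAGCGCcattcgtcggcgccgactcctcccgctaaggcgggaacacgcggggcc
ATP5F1C (chr10:7788057-7788186, plus strand): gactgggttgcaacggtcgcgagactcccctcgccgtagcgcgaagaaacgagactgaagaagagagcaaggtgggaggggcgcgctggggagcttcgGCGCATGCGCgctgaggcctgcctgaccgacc

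The NRF1 motif with a free base, seen in capitals above, was in 9 of the 27 promoters (33.3%), those of UQCRC1, UQCRFS1, UQCR10, UQCR11, UQCC1, UQCC2, ATP5F1C, ATP5ME and ATP5PO. It was in 6.28% of all 27305 promoters of the table and in 11.3% of the 10725 promoters of genes tested. The strict palindromic form, which the freer one contains, was in the promoter of ATP5F1C alone among the 27, against 1.36% of all promoters. For complex I the form with a free base was in 6 of 32 promoters, and for complex IV in 0 of 9. CCGGAAG was in 8 promoters (29.6%), against 10.7% of all promoters and 18.6% of those of tested genes, and the YY1 core motif was in 4 (14.8%), those of UQCRC1, UQCC2, ATPAF2 and ATP5PF, against 1.28% and 2.73%. For complex I and complex IV, CCGGAAG was in 5 of 32 and 5 of 9 promoters, and the YY1 core motif in 4 of 32 and 0 of 9. The matches describe letters in a window, and no binding was measured.

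Of the 35 genes, 13 were lower in Rho0, 8 were higher and 14 did not pass the test (edgeR adjusted p of 0.05). Across all 15184 genes tested, 25.4% were called lower and 29% higher, 54.4% in all. The 13 lower genes are 37.1% of the list and the 8 higher genes 22.9%, beside a background in which more genes were called than not. The median log2 fold change of the 35 was -0.14, with a range of -0.93 to 0.72, against a median of 0.05 over all genes tested (quartiles -0.32 and 0.44). Values of the 2 groups did not overlap in 21 of the 35 genes, 11 with Rho0 lower and 10 with Rho0 higher, and over all genes in 50.9%, 24.3% lower and 26.6% higher. A call with a log2 fold change of 0.5 or more in size was made for 8 lower genes and 1 higher gene of the 35, against 14.9% and 20.1% of all genes. The directions rest on a scaling between libraries beyond their size. DESeq2 size factors in place of TMM gave 7 higher and 13 lower of the 35, with 50.2% of all calls higher. The deposited log2 table gave 9 and 13, with 52.8% of all calls higher. With library size alone, 19 of the 35 were called higher and 5 lower, and 84.8% of all calls were higher in place of 53.3%. The median of the 35 was then 0.25 and that of all genes 0.44. The sign of 15 of the 35 changed under that scale, 5 of them called genes (UQCRFS1, UQCC3, ATP5F1B, ATP5MC3 and TMEM70). Of the genes called lower, 7 had a promoter in the table and 5 of those held the NRF1 motif with a free base, and of those called higher it was in 1 of 7. Among tested genes of the whole table, it was in 12.1% of promoters of genes called lower and in 10.9% of those called higher. CCGGAAG was in 2 of the 7 lower and 3 of the 7 higher (18.9% and 16.6% of tested genes called lower and higher). The YY1 core motif was in 2 and 1 (3.55% and 2.05%), and the strict NRF1 form in 0 and 1 (2.46% and 2.48%). These splits were not tested.

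**Figure D1:**
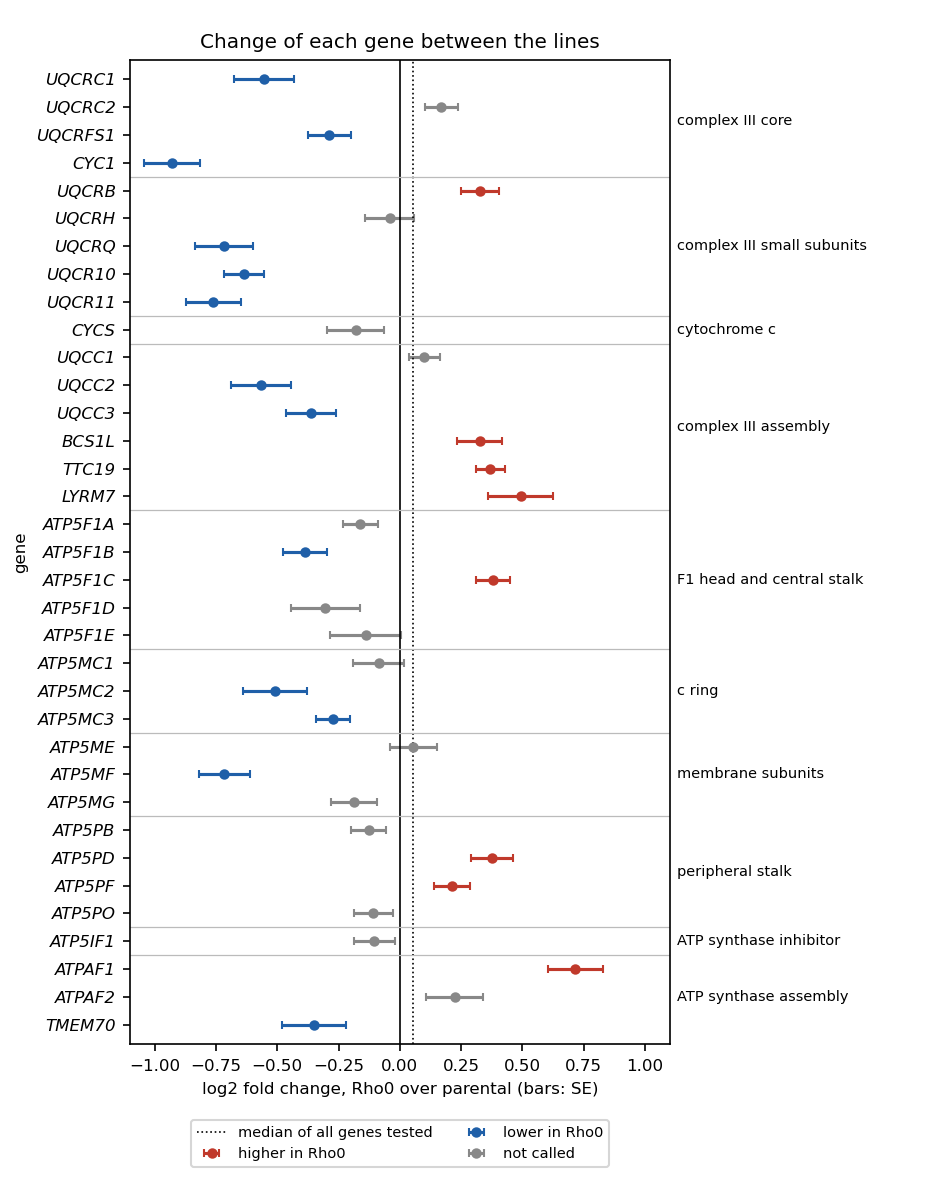
Log2 fold change of each of the 35 genes (Rho0 over parental, x axis) with its standard error (bars), in the order of their roles, from 4 libraries per line. Blue points were called lower in Rho0 (13 genes), red points higher (8) and grey points were not called (14), the dotted line is the median of all genes tested (0.05), and 15 of the 35 genes had the opposite sign with library size alone as the scale.

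The counts of each list are set beside all genes tested, of which 25.4% were called lower and 29% higher. Of the 9 complex III subunits 6 were lower and 1 higher, with a median of -0.55 (-0.17 with library size alone). With library size alone 4 of these subunits were lower and 3 higher, beside 10.1% of all genes lower and 56.5% higher under that scale. The median of all genes was also higher there, as given above. Of the 15 ATP synthase subunits 4 were lower (26.7%) and 3 higher (20%), near the shares of all genes. Their median was -0.14, which turned to 0.25 with library size alone. Of the 9 assembly factors of the 2 complexes 4 were higher (44.4%) and 3 lower (33.3%), with a median of 0.22 (0.08 after an offset per library for the length and GC content of transcripts, called the length and GC correction from here on). For comparison, 20 of 37 nuclear subunits of complex I were lower and 2 higher (median -0.33), and 4 of 11 of complex IV were lower and 1 higher (median -0.24). These medians turned to 0.057 and 0.15 with library size alone, and were -0.17 and -0.17 after the length and GC correction. No test of these differences between lists was made.

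The catalytic core of complex III has 3 electron-carrying subunits, of which cytochrome b is mitochondrially encoded, and a pair of core proteins that face the matrix. CYC1, cytochrome c1, the haem subunit that hands electrons to cytochrome c, was at 163, 173, 185 and 174 CPM in parental replicates 1 to 4 and at 107, 96.1, 90.1 and 71.2 CPM in Rho0 replicates 1 to 4. All Rho0 libraries were below all parental ones. CYC1 (ENSG00000179091, chr8:144095027-144097525 on the plus strand, GRCh38) fell by 47.5%, from 174 ± 9.15 to 91.1 ± 15.0 CPM (SD, n = 4 per line), a log2 fold change of -0.93 (SE 0.11, edgeR adjusted p = 5.1e-05), and was the largest change among the 35 genes. UQCRFS1, the Rieske iron-sulfur protein (ENSG00000169021, chr19:29205321-29213541, minus strand), was at 89.6, 94.2, 95.7 and 99.9 CPM in the parental line and at 90.3, 78.7, 72.3 and 69.7 CPM in Rho0. Rho0 replicate 1 lay within the parental range and the other 3 below it. The change of -0.29 (SE 0.09, edgeR adjusted p = 0.018) was 0.10 with library size alone. The adjusted p was above the threshold when parental replicate 4 or Rho0 replicate 3 was left out, at most 0.061.

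The core proteins went apart. UQCRC1 (core protein 1, ENSG00000010256, chr3:48599002-48610976, minus strand) was at 141, 148, 157 and 144 CPM in the parental line and at 122, 106, 97.8 and 76.3 CPM in Rho0. The groups did not overlap, and replicate 4 was the lowest of the Rho0 libraries. It fell from 147 ± 6.85 to 100.5 ± 18.9 CPM, a log2 fold change of -0.55 (SE 0.12, edgeR adjusted p = 0.003), which was -0.17 with library size alone (adjusted p = 0.19). UQCRC2, core protein 2, was at 104, 117, 108 and 112 CPM and at 123, 118, 123 and 131 CPM. Its groups did not overlap either, with Rho0 above, but the log2 fold change of 0.17 (SE 0.07) did not pass the test (edgeR adjusted p = 0.053).

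**Figure D2:**
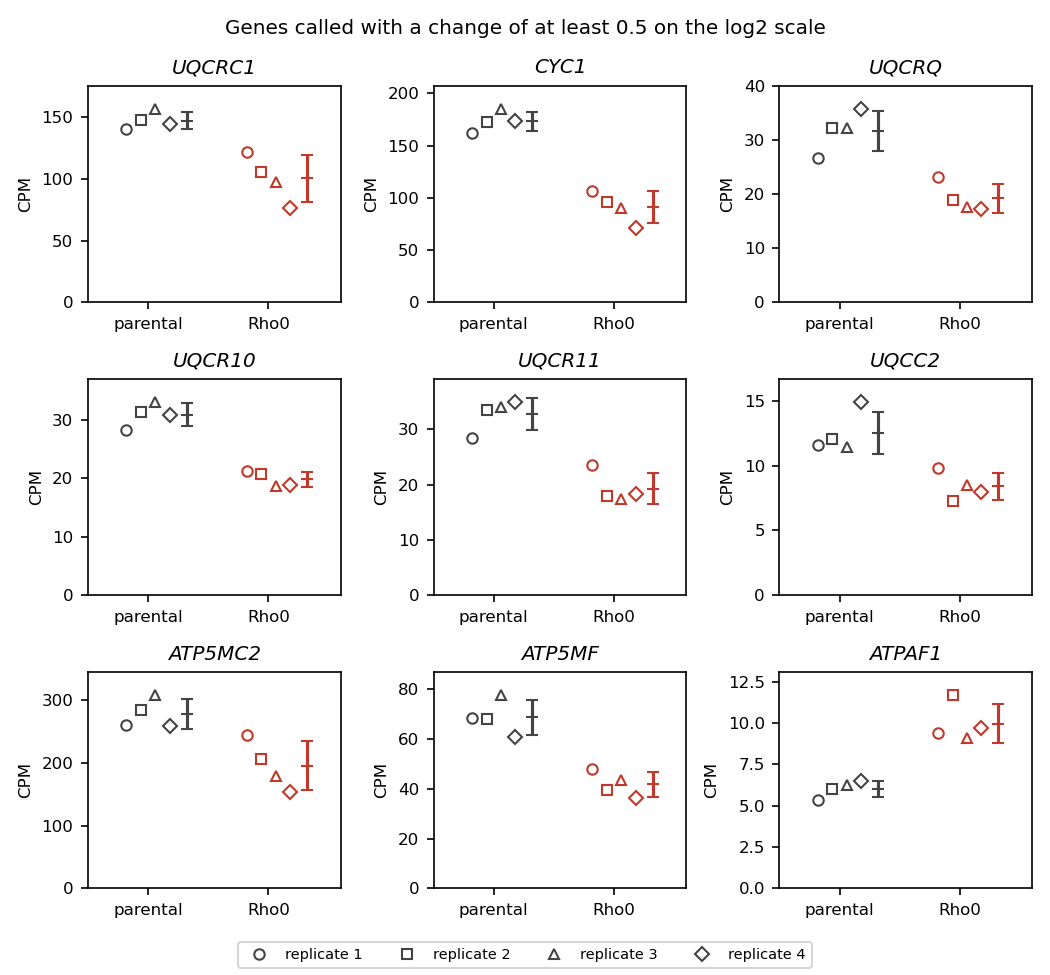
Level in each library (CPM, y axis from 0) of the 9 genes that were called and changed by 0.5 or more on the log2 scale, with 4 parental (grey) and 4 Rho0 (red) libraries, the replicate number as the symbol, and the mean and SD beside the points. In 8 genes every Rho0 library is below every parental one and in ATPAF1 every Rho0 library is above, and in UQCRC1, CYC1, UQCRQ, ATP5MC2 and ATP5MF replicate 1 is the highest and replicate 4 the lowest of the Rho0 libraries.

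The small subunits of complex III carry no redox centre, and 3 of 5 were lower. UQCRQ, which sits beside cytochrome b, was at 26.6, 32.2, 32.2 and 35.7 CPM in the parental line and at 23.2, 18.9, 17.6 and 17.3 CPM in Rho0, a log2 fold change of -0.72 (SE 0.12, edgeR adjusted p = 0.00047). UQCR10 was at 28.2, 31.4, 33.0 and 30.9 CPM and at 21.2, 20.7, 18.7 and 18.8 CPM, a change of -0.64 (SE 0.08, edgeR adjusted p = 6.9e-05). UQCR11 was at 28.5, 33.6, 34.0 and 34.9 CPM and at 23.5, 17.9, 17.3 and 18.3 CPM, a change of -0.76 (SE 0.11, edgeR adjusted p = 0.0002). In all of these the groups were separate, and replicate 1 was the highest of the Rho0 libraries. UQCR11 shares exons with a readthrough gene on its strand (ENSG00000267059), at 52.0 ± 1.99 CPM in the parental line and 45.4 ± 7.11 CPM in Rho0, and reads cannot be divided between the 2 with certainty. Their sum went from 84.7 ± 4.23 to 64.7 ± 9.20 CPM with no overlap, a log2 ratio of -0.39.

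The other small subunits did not follow. UQCRB, once named the ubiquinone-binding protein, was at 90.0, 87.2, 85.0 and 93.1 CPM in the parental line and at 116, 96.7, 113 and 119 CPM in Rho0, all above. It rose by 0.33 on the log2 scale (SE 0.08, edgeR adjusted p = 0.0046), and after the length and GC correction the value was -0.02 (adjusted p = 0.896). UQCRH, the hinge protein between cytochrome c1 and cytochrome c, was at 81.3 to 85.6 CPM in the parental line and at 66.1 to 94.6 CPM in Rho0, a range that takes in the parental one (log2 fold change -0.04, edgeR adjusted p = 0.74). CYCS, cytochrome c itself, the soluble carrier to complex IV that also takes part in apoptosis, was at 31.3, 29.5, 25.9 and 32.6 CPM and at 24.4, 22.2, 26.4 and 31.9 CPM. Its groups overlapped, and the log2 fold change of -0.18 (SE 0.12) did not pass the test (edgeR adjusted p = 0.22). Reads of CYCS can be shared with its 42 named pseudogenes, of which 17 had counts, and these held 3.35% of the reads of gene and copies in the parental line and 4.21% in Rho0. For UQCRFS1 this share was 5.52% and 3.92%, for ATP5PD 1.76% and 1.38%, and for every other gene of the list under 1%.

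Among the 6 assembly factors of complex III, 2 were lower (33.3%) and 3 higher (50%), beside 25.4% and 29% of all genes. UQCC1 and UQCC2 form the pair that binds newly made cytochrome b, and UQCC3 acts just after them. UQCC2 was at 11.6, 12.05, 11.4 and 14.9 CPM in the parental line and at 9.79, 7.31, 8.49 and 7.98 CPM in Rho0, with no overlap, a log2 fold change of -0.57 (SE 0.12, edgeR adjusted p = 0.0026), which was -0.18 with library size alone (adjusted p = 0.27). UQCC3 was at 15.3 to 17.9 CPM and at 11.0 to 14.5 CPM (-0.36, edgeR adjusted p = 0.013), which became 0.02 with library size alone. UQCC1 did not pass the test, at 50.02 to 54.6 CPM and 54.6 to 59.0 CPM (0.10, edgeR adjusted p = 0.2).

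BCS1L is the ATPase that moves the Rieske protein across the inner membrane, LYRM7 the chaperone that holds it in the matrix before that step, and TTC19 clears its cleaved leader fragments from the finished complex. All of these were higher in Rho0. BCS1L rose from 12.8 ± 0.548 to 16.1 ± 1.49 CPM (log2 fold change 0.33, edgeR adjusted p = 0.012) and TTC19 from 38.8 ± 0.794 to 50.2 ± 1.33 CPM (0.37, edgeR adjusted p = 0.00047), neither with overlap. LYRM7 was at 8.97 to 10.3 CPM in the parental line and at 11.1, 11.9, 14.4 and 16.7 CPM in Rho0 (0.49, edgeR adjusted p = 0.009). Its value was 0.08 after the length and GC correction (adjusted p = 0.376). On the other strand, 13 of the 35 genes are overlapped by a gene at 0.5 CPM or more, among them UQCC2 beside ITPR3 (854 CPM in the parental line, 622 CPM in Rho0) and TTC19 beside NCOR1 (103 and 152 CPM). The sources used here do not say whether the counting used strand, so reads of such pairs may be mixed.

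**Figure D3:**
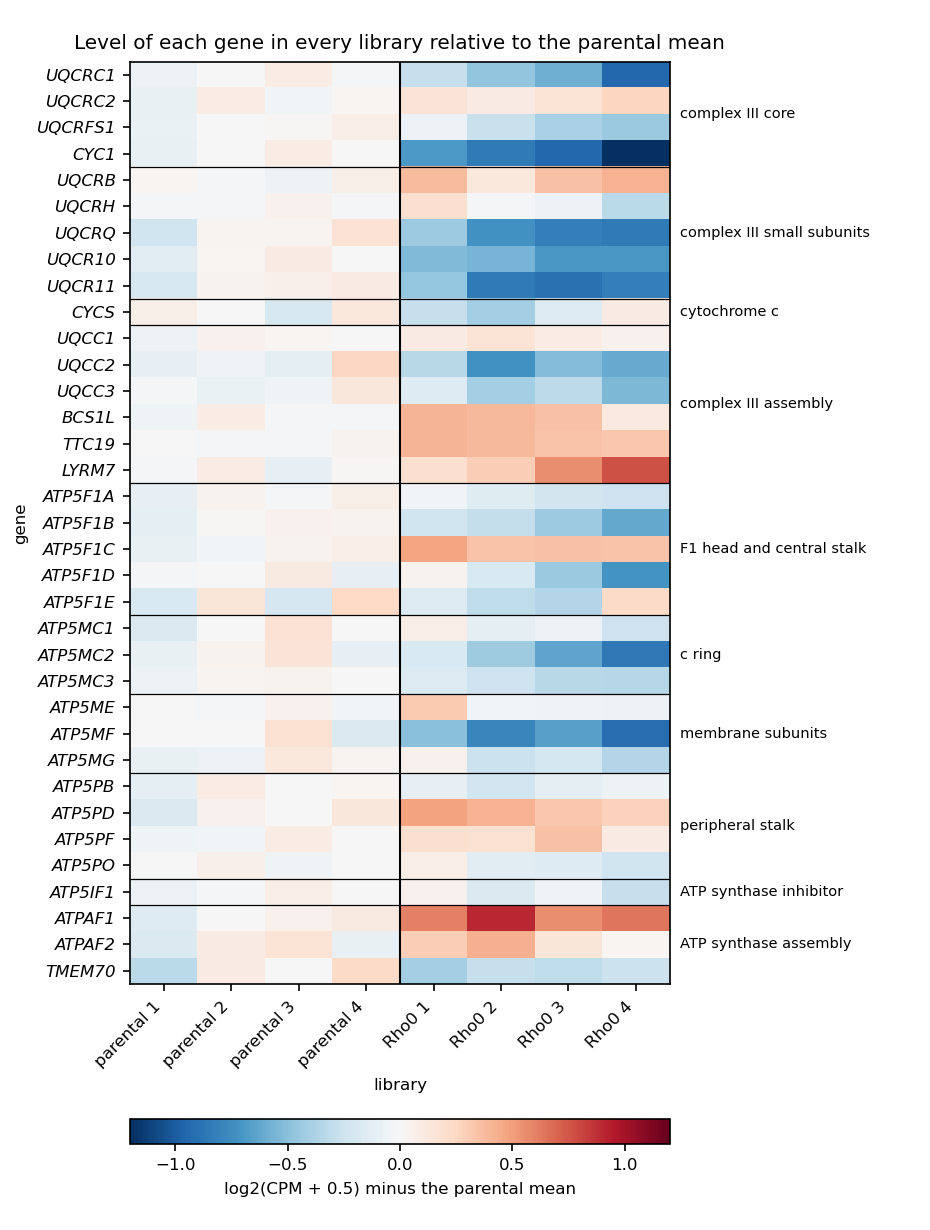
Level of each of the 35 genes (rows, grouped by role) in each library (columns), as log2(CPM + 0.5) minus the mean of the 4 parental libraries, blue below and red above. In complex III the rows of CYC1, UQCRC1, UQCRQ, UQCR10, UQCR11 and UQCC2 are blue in all 4 Rho0 libraries and those of UQCRB, BCS1L, TTC19 and LYRM7 red, while most rows of the ATP synthase are paler.

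The F1 head of the ATP synthase holds alternating alpha and beta subunits around the central stalk. ATP5F1B, the catalytic beta subunit and the most abundant of the 35 transcripts in CPM, was at 415, 449.6, 463 and 460.4 CPM in the parental line and at 379, 366, 330.0 and 292 CPM in Rho0. All Rho0 libraries were lower, with a log2 fold change of -0.39 (SE 0.09, edgeR adjusted p = 0.0038), which was 0.00061 with library size alone. ATP5F1A, the alpha subunit, was at 148, 162, 157 and 166 CPM and at 155, 143, 136 and 134 CPM. Rho0 replicate 1 lay inside the parental range, and the change of -0.16 (SE 0.07) did not pass the test (edgeR adjusted p = 0.079). ATP5F1C, the gamma subunit that turns inside the head (ENSG00000165629, chr10:7788129-7807815, plus strand), was at 45.5, 47.5, 49.96 and 51.3 CPM and at 67.6, 61.5, 62.1 and 61.5 CPM. It rose without overlap, by 0.38 on the log2 scale (SE 0.07, edgeR adjusted p = 0.00089). The delta and epsilon subunits of the stalk, ATP5F1D and ATP5F1E, had overlapping groups and values of -0.31 and -0.14 (edgeR adjusted p = 0.09 and 0.44).

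The proton-carrying c ring is made of 1 mature protein encoded by 3 genes, whose products differ in the targeting peptide that is removed on import. ATP5MC2 was at 260.1, 285, 307 and 258 CPM in the parental line and at 244, 205, 178 and 153 CPM in Rho0, lower throughout, with a log2 fold change of -0.51 (SE 0.13, edgeR adjusted p = 0.0073). It was -0.12 with library size alone (adjusted p = 0.35) and -0.28 after the length and GC correction (adjusted p = 0.0083). ATP5MC3 was at 50.2, 54.1, 54.2 and 52.5 CPM and at 47.0, 44.2, 41.7 and 41.5 CPM, also lower throughout (-0.27, SE 0.07, edgeR adjusted p = 0.0064, and 0.12 with library size alone). ATP5MC1 was at 13.4, 15.1, 17.2 and 15.3 CPM and at 16.1, 14.1, 14.5 and 12.7 CPM, with overlap (-0.09, edgeR adjusted p = 0.51). The adjusted p of ATP5MC3 was 0.087 after the length and GC correction, with a value of -0.12.

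Shares within the 3 genes do not depend on the scaling between libraries. ATP5MC2 gave 80.3% ± 0.81 (SD, n = 4) of the c-ring counts in the parental line and 76.8% ± 2.44 in Rho0, ATP5MC3 gave 15.3% ± 0.756 and 17.5% ± 2.00, and ATP5MC1 gave 4.42% ± 0.25 and 5.73% ± 0.509. The share of ATP5MC1 ran from 4.15% to 4.69% in the parental libraries and from 5.24% to 6.21% in Rho0, with no overlap, a difference of 1.32 percentage points (1.81 when counts were taken per kilobase of transcript). The shares of the other 2 genes overlapped between the lines because Rho0 replicate 1 lay within the parental range.

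**Figure D4:**
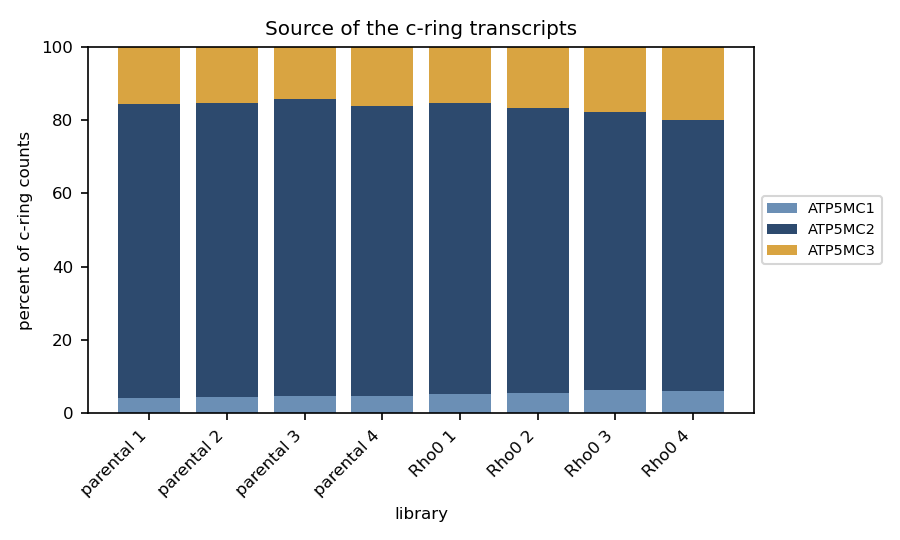
Percentage of the summed c-ring counts (y axis) that came from ATP5MC1, ATP5MC2 and ATP5MC3 in each of the 8 libraries (x axis). ATP5MC2 gives most of the counts in every library, and the ATP5MC1 part is larger in each Rho0 library (5.24% to 6.21%) than in any parental one (4.15% to 4.69%).

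The membrane part also holds small subunits around subunit a that help the enzyme form dimers. ATP5MF, subunit f, was at 68.5, 68.1, 77.6 and 60.7 CPM in the parental line and at 48.1, 39.5, 43.5 and 36.2 CPM in Rho0. The groups were well apart, and the log2 fold change of -0.72 (SE 0.10, edgeR adjusted p = 0.0002) was the largest fall among the ATP synthase genes. After the length and GC correction it was -0.20 (adjusted p = 0.031). A readthrough gene on the same strand, ATP5MF-PTCD1, was at 7.11 and 6.01 CPM, and the sum of both went from 75.8 ± 7.30 to 47.8 ± 4.99 CPM. ATP5ME (subunit e) and ATP5MG (subunit g) had overlapping groups and values of 0.05 and -0.19 (edgeR adjusted p = 0.66 and 0.12). ATP5ME was 0.50 and passed the test after the length and GC correction (adjusted p = 5.1e-05).

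The peripheral stalk holds the head still while the ring turns. ATP5PD (subunit d) rose from 33.7 ± 3.06 to 43.7 ± 2.85 CPM with no overlap (log2 fold change 0.38, edgeR adjusted p = 0.0036). ATP5PF (coupling factor 6) was at 46.3 to 51.1 CPM in the parental line and at 51.5 to 61.5 CPM in Rho0 (0.21, edgeR adjusted p = 0.033). That call was lost in 8 of 20 alternative analyses, among them leaving out parental replicate 1, 2 or 4 or Rho0 replicate 1, 2 or 3, with an adjusted p of at most 0.158. ATP5PB (subunit b, -0.13) and ATP5PO (the subunit that joins stalk and head, -0.11) did not pass the test (edgeR adjusted p = 0.15 and 0.28).

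ATP5IF1, the inhibitor of ATP hydrolysis by the F1 head, was at 46.4, 48.2, 51.5 and 48.8 CPM in the parental line and at 50.4, 43.2, 47.3 and 40.2 CPM in Rho0. The groups overlapped, and the log2 fold change of -0.11 (SE 0.08) did not pass the test (edgeR adjusted p = 0.31). Relative to ATP5F1B, to which it binds, the ratio of counts was 0.109 ± 0.00287 in the parental line (0.106 to 0.112) and 0.133 ± 0.0109 in Rho0 (0.118 to 0.143). The ratio was higher in every Rho0 library, 1.22-fold on the means, and it does not depend on the scaling between libraries. It is a ratio of transcript counts, and no protein was measured.

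Of the assembly factors of the ATP synthase, ATPAF1, the chaperone of the beta subunit (ENSG00000123472, chr1:46632737-46673867, minus strand), was at 5.37, 6.004, 6.24 and 6.51 CPM in the parental line and at 9.40, 11.7, 9.09 and 9.69 CPM in Rho0. It rose by 64.3%, a log2 fold change of 0.72 (SE 0.11, edgeR adjusted p = 0.00032), the largest rise among the 35 genes. ATPAF2, the chaperone of the alpha subunit, was at 11.98 to 15.3 CPM and at 13.8 to 18.5 CPM (0.22, edgeR adjusted p = 0.13). TMEM70, which helps to build the c ring, went from 7.78 ± 1.29 to 6.11 ± 0.31 CPM with overlap (-0.35, edgeR adjusted p = 0.041). It no longer passed the test when parental replicate 2, 3 or 4, or Rho0 replicate 1, 2 or 3, was left out (adjusted p at most 0.121), and the value was 0.04 with library size alone.

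Levels can be set side by side between genes only per length. In CPM per kilobase of transcript, the subunits with the highest parental levels were ATP5MC2 (316), ATP5F1B (243), ATP5MF (225), CYC1 (140) and UQCRH (137), and in Rho0 they were at 222, 186, 137, 73.5 and 133. CYC1 was thus close to UQCRH in the parental line and well below it in Rho0. The 9 assembly factors ran from LYRM7 at 1.52 and 2.13 to UQCC1 at 21.5 and 23.1 CPM per kilobase. On this scale UQCC1 was above the subunits UQCRB (15.9 and 19.9) and ATP5PB (20.3 and 18.5). That order rests on the annotated lengths, 5575 bases for UQCRB, 3156 for ATP5PB and 2447 for UQCC1. In CPM both subunits were above UQCC1 in both lines (88.8 and 63.9 against 52.6 parental, 111 and 58.5 against 56.4 Rho0). Across the 35 genes the log2 fold change had a Pearson's r of -0.36 (Spearman's rho -0.30) with the log2 parental level in CPM, and across all tested genes with a length -0.35 (rho -0.33). The parental level enters both quantities, with opposite sign in the fold change, which by itself tends to make r negative. These are correlations across genes, which share their libraries and are not replicates.

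Libraries of each line differed from each other in a way that touched most of the 35 genes. Parental replicate 1 was the lowest parental library in 22 of the 35 (25.5% of all genes), and 32 of the 35 were below the parental mean there. In Rho0, replicate 1 was the highest library in 24 of the 35 (33.4% of all genes tested) and replicate 4 the lowest in 23 (36.3% of all genes). In the 13 genes called lower, replicate 1 was the highest Rho0 library in 12 and replicate 4 the lowest in 9. Median shifts of the 35 genes from the parental mean were 0.04, -0.18, -0.17 and -0.25 on the log2 scale in Rho0 replicates 1 to 4. Each library's deviation from its group mean was also correlated with GC content across 14230 genes: r was 0.61, 0.23, -0.11 and -0.64 in Rho0 replicates 1 to 4, and -0.21 to 0.35 in the parental libraries. With log2 transcript length, r was -0.38, -0.05, 0.04 and 0.35 in Rho0 replicates 1 to 4, and -0.06 to 0.05 in the parental libraries. Leaving out Rho0 replicates 1 and 4 together, an analysis added after the data were seen, gave 19 lower and 8 higher genes among the 35, and 10 lower in place of 4 among the 15 ATP synthase subunits, with 28% of all genes called lower and 28.4% higher. Without Rho0 replicate 1 alone, 8 of the ATP synthase subunits were lower, with 28.5% of all genes called lower.

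The log2 fold change of the 35 genes went with the GC content of their transcripts, with r = -0.46 (rho -0.44, n = 35 genes), against -0.10 (rho -0.21) over all genes with a length. With log2 transcript length r was 0.36 (rho 0.26), against 0.12 (rho 0.16) over all genes with a length. The correction adjusts for length and GC content together, so their parts in it cannot be told apart. It was fitted to each library's deviation from the mean of all 8 libraries. It therefore also takes out any difference between the lines that goes with length or GC content. After the correction, also added after the data were seen, the r with GC content among the 35 was -0.20. It gave 16 lower and 8 higher genes, while 34.2% of all genes were called lower (25.4% without the correction) and 28% higher. The 6 lower complex III subunits were again called lower under this correction, with values of -0.77 for CYC1, -0.51 for UQCR11, -0.51 for UQCRQ, -0.49 for UQCRC1, -0.49 for UQCR10 and -0.40 for UQCRFS1. Of the 8 higher genes, UQCRB and LYRM7 were no longer called. Their transcripts have GC contents of 38.3% and 37.1% and lengths of 5575 and 6351 bases. ATP5ME and ATPAF2 were called higher instead.

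**Figure D5:**
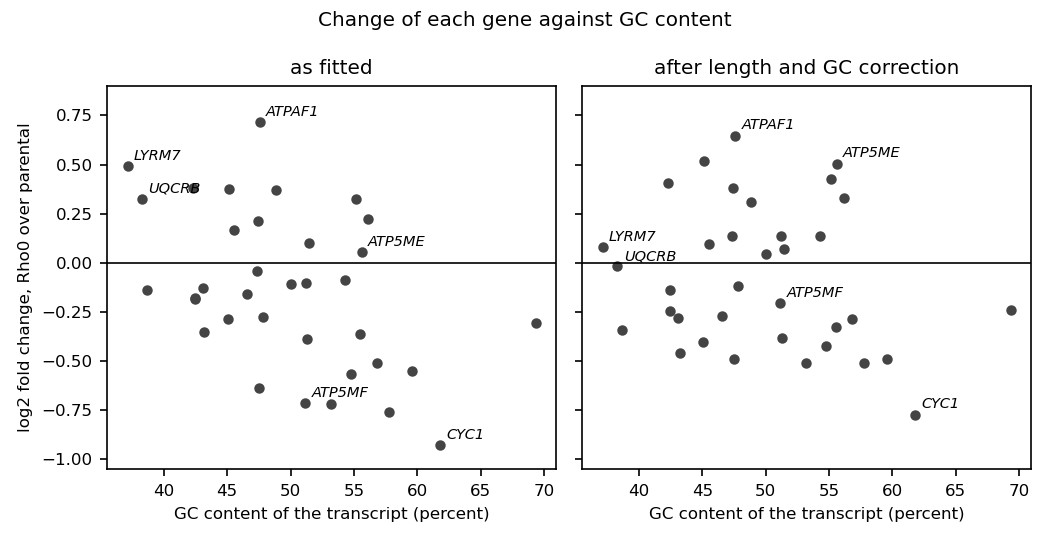
Log2 fold change of each of the 35 genes (Rho0 over parental, y axis) against the GC content of its transcript in percent (x axis), as fitted (left, r = -0.46) and after the length and GC correction (right, r = -0.20). LYRM7 and UQCRB at the low end move to near 0 under the correction, ATP5ME and ATP5MF both move up, and CYC1 stays the lowest. The correction also covers transcript length, which is not shown (6351 and 5575 bases for LYRM7 and UQCRB, 365 and 305 for ATP5ME and ATP5MF).

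Of the 21 called genes, 10 kept their call and direction under all 20 alternative analyses. The lower ones were CYC1, UQCRQ, UQCR10, UQCR11 and ATP5MF, and the higher ones BCS1L, TTC19, ATP5F1C, ATP5PD and ATPAF1. Library size alone is among these alternatives, and it moved the median of all genes from 0.05 to 0.44. That shift works against lower calls and in favour of higher ones, so the 2 directions were not tried equally. UQCRC1, UQCC2, UQCC3, ATP5F1B and ATP5MC2, all called lower, lost the call under that scale and under no other alternative. No such count over all called genes is given here. All 14 genes that were not called passed the test under at least 1 alternative. UQCC1, UQCRH, ATP5MC1 and ATP5IF1 did so with library size alone and under no other alternative. In UQCRH, ATP5MC1 and ATP5IF1 the sign had changed there (0.35, 0.31 and 0.29).

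Other genes of the same pathway were taken from a list of 32, of which 30 passed the filter on low counts. Of these 30, 5 were higher and 8 lower, and 3 of the lower ones are the mitochondrially encoded partners given above. Without these, 5 of 27 were higher and 5 lower (18.5% each), below the 29% and 25.4% of all genes. OXA1L, the insertase that places mitochondrially made proteins in the inner membrane, was at 294, 292, 319.6 and 291 CPM in the parental line and at 208, 201, 194 and 172 CPM in Rho0 (log2 fold change -0.63, edgeR adjusted p = 4.9e-05). SLC25A5, an ADP/ATP carrier, was at 475 ± 28.1 and 289.7 ± 37.3 CPM (-0.71, edgeR adjusted p = 0.00011), and SLC25A4, a related carrier, at 1.65 ± 0.409 and 0.887 ± 0.0531 CPM (-0.88, edgeR adjusted p = 0.0072, and -0.49 with an adjusted p of 0.081 with library size alone). SLC25A6, another abundant gene of this carrier family, was at 460.4 ± 31.7 and 487 ± 85.9 CPM and was not called (0.08, edgeR adjusted p = 0.6). COX7A2L, which joins complex III to complex IV, was higher (0.38, edgeR adjusted p = 0.011, and 0.29 with an adjusted p of 0.072 after the length and GC correction).

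Among 11 tested transcriptional regulators of these genes, 4 were higher (36.4%) and 2 lower (18.2%), near the 29% and 25.4% of all genes. GABPA was at 17.1, 17.5, 12.1 and 18.0 CPM in the parental line and at 18.7, 23.0, 24.0 and 36.4 CPM in Rho0 (0.66, edgeR adjusted p = 0.016, and 0.23 after the length and GC correction). Its partner GABPB1 fell by 0.41 on the log2 scale (edgeR adjusted p = 0.0037), which was -0.018 with library size alone (adjusted p = 0.90) and -0.75 after the length and GC correction. GABPA overlaps ATP5PF on the other strand. CREB1 (0.67), SP1 (0.30) and MYC (0.34) were higher, and PPRC1, a coactivator related to PGC-1alpha, was lower (-0.46), with edgeR adjusted p-values of 0.0013, 0.014, 0.0011 and 0.00062. After the length and GC correction CREB1 was 0.21 and MYC 0.52, and with library size alone PPRC1 was -0.064 (adjusted p = 0.36). NRF1 (-0.10), YY1 (0.06) and TFAM (-0.01) did not pass the test (edgeR adjusted p = 0.36, 0.43 and 0.95), and PPARGC1A was at most 0.103 CPM in any library and was not tested. In cultures of 1 cell type, fewer expressing cells and less RNA per cell cannot be told apart.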

How the data were processed

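The authors deposited 2 tables for the 8 libraries. As deposited by the authors, one holds estimated counts per Ensembl gene, not scaled between libraries, and the other normalized log2 values of 12885 genes. Per the labels' protocols, libraries were strand-specific and enriched for polyadenylated RNA. Kallisto, edgeR, limma and GRCh38 are named, without versions, in the submitters' processing notes. In 97.8% of 11402 genes compared, the deposited log2 values equalled log2 of the counts times 1 factor per library, plus 1 (tolerance 0.001).

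Counts were rounded and fitted in edgeR 4.0.16 (R 4.3.3): TMM, filterByExpr (minimum count 10), quasi-likelihood F-test with group alone, Benjamini-Hochberg adjustment over 15184 genes, called at 0.05. A standard error is the log2 fold change divided by the square root of F. Biological variation between replicates (edgeR's coefficient) was 13.7%. In simulated data (14923 genes tested, 50 changed per fold size) the fit called 32% of genes changed 1.5-fold and 98% of those changed 2-fold, and 6 of 171 calls were false. No replicate pair agreed within sampling noise (chi-square per degree of freedom at least 4.21). Symbols came from a gene table and GENCODE 29 (34284 of 38010 IDs named). Coordinates, lengths and GC content (median of principal transcripts) are those of GENCODE 29.

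The members and lists were chosen with earlier results of these data known. Values in every library are given for members that were called and changed by 0.5 or more on the log2 scale and for fixed members (ATP5MC1, ATP5MC2, ATP5MC3, ATP5IF1, CYCS, ATP5F1A, ATP5F1B, UQCRC1, UQCRFS1). Other genes given in full (UQCRC2, UQCRB, ATP5F1C, OXA1L, GABPA) were chosen after their values were seen. Alternatives used DESeq2 1.42.0, limma 3.58.1 (voom, and trend on the log2 table), other scalings and filters, a replicate term, leaving out libraries, and a length and GC offset per library (mgcv 1.9.3). That offset, pseudogene counts added to members and leaving out Rho0 replicates 1 and 4 together were added after the data were seen.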

Additional observations from a re-analysis of the deposited data

Results flagged for a closer look

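In 4 of 78 groups of 4 libraries, 1 library stood far from the other 3, where chance gives about 1 in 20 groups. UQCRH was at 85.6 CPM in its highest parental library, and the other 3 were at 81.3 to 81.9 CPM. UQCR11 was at 23.5 CPM in Rho0 replicate 1, against 17.3 to 18.3 CPM in the other Rho0 libraries. ATP5F1C was at 67.6 CPM in Rho0 replicate 1, against 61.5 to 62.1 CPM. ATP5ME was at 35.7 CPM in Rho0 replicate 1, against 27.3 to 28.0 CPM. The part of library differences in these values was not tested.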

How the results depend on the processing

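With library size alone in place of TMM, 19 of the 35 genes were higher and 5 lower, all genes tested gave 8583 higher and 1540 lower, complex III subunits 3 higher, ATP synthase subunits 9 higher and 1 lower, and the list of other genes 16 higher and 5 lower. The median of the 35 became 0.25, as did that of the ATP synthase subunits, and the medians of complex I and complex IV became 0.057 and 0.15. Single genes turned to UQCRFS1 0.10, UQCRH 0.35, UQCC3 0.023, CYCS 0.21, ATP5F1A 0.23, ATP5F1B 0.00061, ATP5F1D 0.083, ATP5F1E 0.25, ATP5MC1 0.31, ATP5MC3 0.12, ATP5MG 0.20, ATP5PB 0.26, ATP5PO 0.28, ATP5IF1 0.29 and TMEM70 0.041; this scaling counts the mitochondrially encoded reads in the library size. Complex III subunits called higher were 2 with a filter of 50 counts and with the deposited log2 table, and 0 after the length and GC correction, under which UQCRB was -0.018 and the median (median log2 fold change of all genes) came to -0.0395. ATP synthase subunits called lower were 7 after that correction, 10 leaving out Rho0 replicates 1 and 4 together, and 4 to 8 when single libraries were left out; the cause was not tested. With mitochondrially encoded genes left out, 5 of the other genes were lower, since their 3 mitochondrial members were not fitted. The ATP5MC1 share difference was 1.81 points per kilobase.

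Replicate numbers did not pair the libraries (correlations of same-number deviations -0.13, 0.04, 0.00 and 0.16). With the replicate number as a block, 8 of the 35 genes were higher and 14 lower, and 0 of the 21 called genes lost the call. DESeq2's Wald test gave 7 higher and 14 lower, and limma-voom 8 and 13. In the simulated data, 32% of genes changed 1.5-fold were called, a share that does not carry over to the 35 genes.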
